A study of Danio rerio with 18 samples.

Results

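The genes described here are those of cholesterol synthesis, cholesterol uptake and sterol sensing. They were chosen by symbol: a list of 34 zebrafish symbols was matched to the gene IDs of the count table, which gave 31 IDs of the 32057 in the table. The list was chosen with earlier results of these data known. The shares over all genes given beside it below therefore describe the set and do not test it. Of the 31, 20 encode enzymes of synthesis (5 of the mevalonate pathway, 6 of the isoprenoid and squalene steps, 9 of the steps that turn lanosterol into cholesterol), 2 encode LDL receptors, 5 encode sterol-sensing and regulatory proteins and 4 carry cholesterol inside the cell. The low-count filter passed 30 of them. The exception was one of the IDs named npc2 (ENSDARG00000096979), which stayed at or below 0.456 CPM (counts scaled to a common library total) in every library.

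Cells build cholesterol from acetyl-CoA by way of mevalonate, isoprenoids, squalene and lanosterol, and take it up in lipoproteins through the LDL receptor. When membrane sterol is low, SCAP escorts the SREBP transcription factors out of the endoplasmic reticulum, and cleaved SREBP raises the genes of synthesis and uptake, whereas INSIG proteins hold SCAP back when sterol is plentiful. In the mammalian brain most cholesterol is made locally, because lipoproteins of the blood do not cross the barrier, and much of it ends in myelin.

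Poly(A) RNA was sequenced from whole brains of zebrafish at 4 months of age, in 18 libraries of 6 families. Hom libraries came from fish homozygous for the hu3528 loss-of-function allele of mfn2, the gene of the mitochondrial fusion protein mitofusin 2. Het libraries came from heterozygous fish of the same families, and WT libraries from their wild-type brothers and sisters. Every family was the progeny of a single mating of its own pair of hu3528 heterozygotes and gave 1 library per genotype, so that n = 6 for each. A library pools 4 brains, from 2 females and 2 males. Fish were genotyped at 2.5 months and then kept in a separate tank for each genotype of a family, so genotype and tank cannot be told apart. In these whole-brain pools, fewer cells of a type and less RNA per cell cannot be told apart either.

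Library totals ran from 21945070 to 42897654 counts. mfn2 itself had 25.4 to 34.1 CPM in Hom, 67.8 to 117 CPM in Het and 75.2 to 140 CPM in WT. The lowest WT value and the highest Het value were both in family 2, where the library labelled WT had 75.2 CPM and the one labelled Het 117 CPM. Each lay in or near the range of the other genotype, so the labels of these libraries may be exchanged, and the values of family 2 against WT and Het are to be read with that in mind. The labels were kept. Another 3 libraries stood apart from the rest: the Hom library of family 3 and the Het libraries of families 1 and 3. Over genes with a mean above 10 CPM, each library was compared, gene by gene, with the median of all 18 libraries. Log2 levels deviated from that median by an SD of 0.703 to 1.13 in these 3 and 0.191 to 0.288 in the other 15.

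Some transcripts of cholesterol synthesis enzymes were lower in Hom brains than in WT brains in each of the 3 groups of steps: 2 of 5, 3 of 6 and 4 of 9 from the mevalonate pathway to the last group. In the comparison of Hom with WT, 10 of the 30 tested genes were lower and 0 were higher at an adjusted p of 0.05 (edgeR quasi-likelihood test with Benjamini-Hochberg adjustment over all 20353 tested genes). Over all tested genes 0.423% were called lower and 1.49% higher. The median log2 fold change of the 30 genes was -0.56, beside 0.04 over all tested genes. The ranges of the groups did not overlap for 7 of the 30, with Hom below WT, a pattern held by 1.42% of all tested genes. In 15 of the 30 the Hom library was below the WT library in each of the 6 families, against 8.14% of all tested genes.

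Against Het, 13 of the 30 were lower in Hom and 0 were higher by the same test, where 0.801% of all genes were called lower and 1.19% higher. The median log2 fold change was -0.51, beside 0.06 over all genes. Hom lay wholly below Het in 9 of the 30, a pattern of 1.96% of all genes. Of the genes lower in either comparison, 9 were lower in both, hmgcs1 was lower against WT alone, and mvd, idi1, tm7sf2 and ebp were lower against Het alone. The comparisons share the Hom libraries, and whether the last 5 genes differ between them was not tested. Most of these calls belong to synthesis: 9 of the 20 enzymes were lower against WT and 12 of the 20 against Het, with insig1 the one gene called among the 10 others tested in each comparison. The median log2 fold change of the enzymes was -0.74 against WT and -0.90 against Het. For the 10 other genes it was 0.04 against WT and 0.21 against Het. These last medians include the Hom library of family 3, which was far above the other Hom libraries in ldlrb, srebf1, srebf2, scap and stard4. Without the 3 libraries that stand apart, ldlrb (-0.82) and srebf2 (-0.43) were also lower against WT, and ldlrb (-0.87) against Het. The rest of the 10, apart from insig1, were again not called, so the split between enzymes and other genes depends in part on those libraries.

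Het brains did not differ detectably from WT brains in these genes, but the comparison was insensitive. edgeR's quasi-likelihood test called 0 of the 30 genes in Het against WT, with adjusted p from 0.903 to 0.998, and called 0.0% of all tested genes. It thus missed mfn2, which outside family 2 had 67.8 to 86.4 CPM in Het and 120 to 140 CPM in WT. The comparison holds family 2, whose WT and Het labels may be exchanged. It also holds the Het libraries of families 1 and 3, which stand apart. The absence of calls therefore does not show that Het and WT are alike in these genes. Without adjustment the same edgeR test put sc5d alone of the 30 under 0.05, and 524 of the 20353 genes. DESeq2 called 0 of its 31 and 13 of the 27047 genes it tested. The median log2 fold change of the 30 was 0.04, beside 0.01 over all genes.

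**Figure D1:**
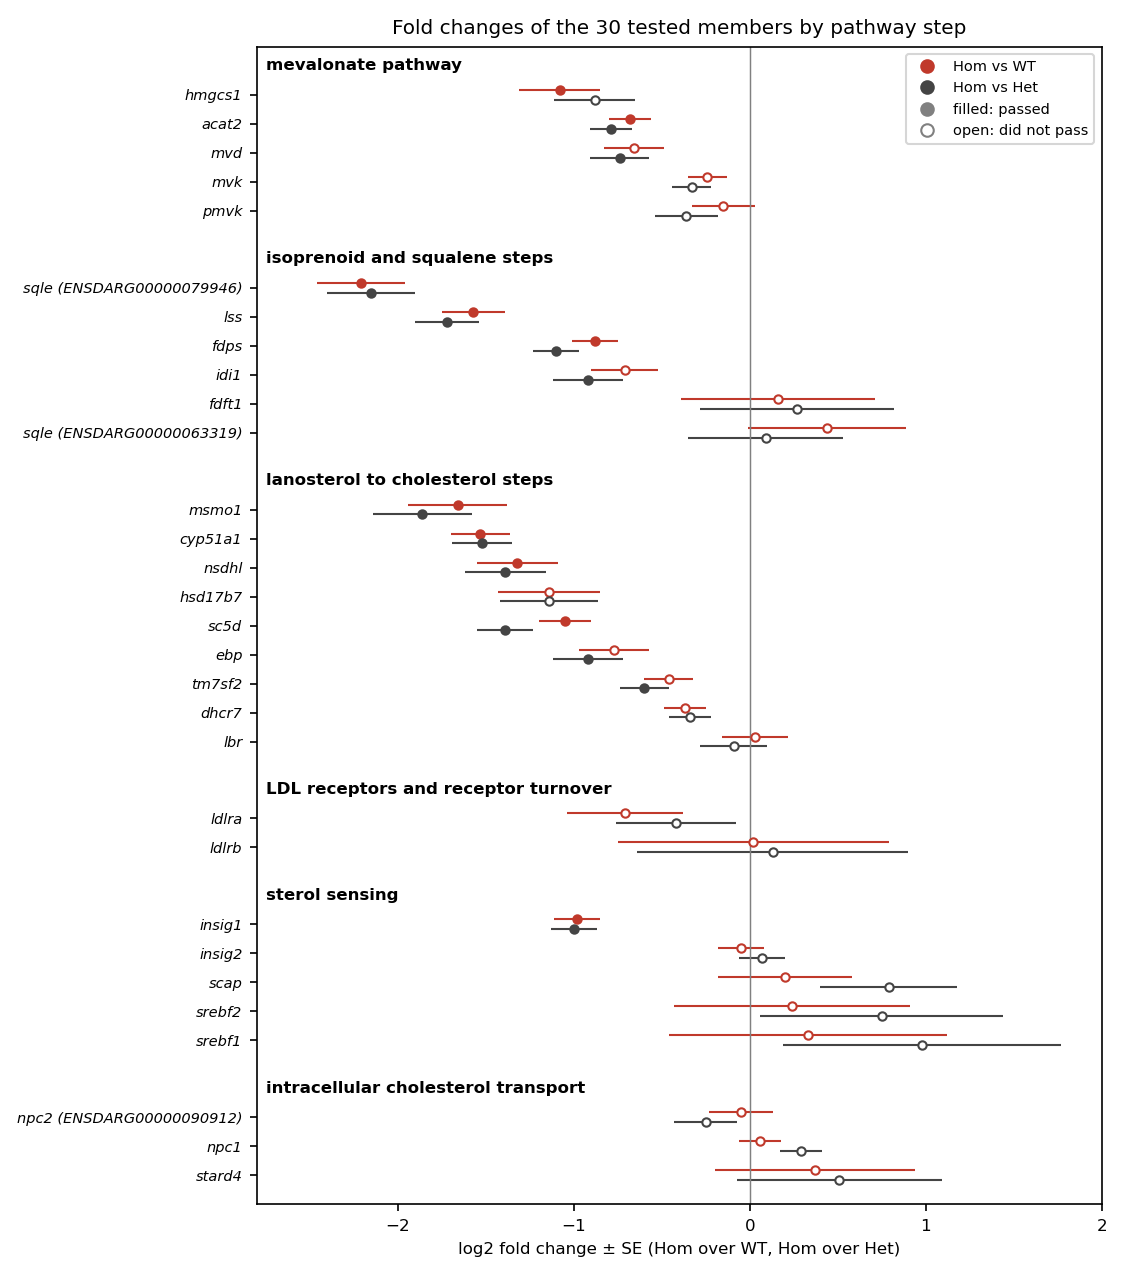
Log2 fold change with its standard error for the 30 tested genes, grouped by pathway step, for Hom over WT (red) and Hom over Het (dark grey); filled points passed an adjusted p of 0.05 (edgeR). The enzymes lie mostly left of 0, down to -2.21 for one sqle ID, whereas insig1 is the one filled point outside the 3 groups of synthesis enzymes.

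In the mevalonate pathway 2 of the 5 genes given here were lower in Hom against WT (step median log2 fold change -0.66) and 2 of 5 against Het (-0.74). acat2, the acetyl-CoA acetyltransferase that begins the route, had a lowest, median and highest level of 32.1, 39.9 and 52.9 CPM in Hom, 58.8, 68.6 and 87.8 CPM in Het, and 56.9, 63.3 and 74.7 CPM in WT. All 6 Hom libraries were below every Het and WT library. Its log2 fold change was -0.68 ± 0.12 (SE) against WT (edgeR adjusted p = 0.0129) and -0.79 ± 0.12 against Het (edgeR adjusted p = 0.00548).

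hmgcs1, the HMG-CoA synthase of the cytosol, had 14.8, 20.1 and 31.2 CPM in Hom, 26.4, 34.7 and 67.7 CPM in Het, and 28.9, 45.1 and 63.1 CPM in WT (lowest, median, highest). The Hom range reached just into the others, but Hom was below WT in each of the 6 families, at 32.4% to 81.3% of the WT level. hmgcs1 had a log2 fold change of -1.08 ± 0.23 against WT (edgeR adjusted p = 0.0283) and -0.88 ± 0.23 against Het, which did not pass (edgeR adjusted p = 0.0683).

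Of the later mevalonate enzymes, mvk and pmvk had smaller log2 fold changes against WT (-0.24 and -0.15) than acat2 and hmgcs1. That of mvd was close to that of acat2, and differences between genes were not tested. mvd, which decarboxylates mevalonate diphosphate, had 6.81, 8.02 and 11.4 CPM in Hom, 11, 13.6 and 20.1 CPM in Het, and 10.6, 13 and 19.5 CPM in WT. It was lower in Hom than in WT in 6 of 6 families without passing the test (log2 fold change -0.66 ± 0.17, edgeR adjusted p = 0.0749), and it passed against Het (-0.74 ± 0.17, edgeR adjusted p = 0.0433). The kinases mvk and pmvk, which phosphorylate mevalonate in succession, passed in neither comparison. mvk had medians of 5.19 CPM in Hom, 6.69 CPM in Het and 6.20 CPM in WT, and pmvk had medians of 12.7 CPM in Hom, 14.2 CPM in Het and 12.5 CPM in WT.

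In the isoprenoid and squalene steps 3 of 6 IDs were lower against WT (step median -0.80) and 4 of 6 against Het (step median -1.01). idi1, the isomerase that readies isopentenyl diphosphate for chain building, had 12.2, 23.3 and 34.1 CPM in Hom, 30.9, 44.4 and 54.6 CPM in Het, and 31.8, 36.0 and 51.4 CPM in WT. It passed against Het (log2 fold change -0.92 ± 0.20, edgeR adjusted p = 0.0339) and not against WT (-0.71 ± 0.19, edgeR adjusted p = 0.0962), although Hom was lower in 6 of 6 families in both. The call against Het was lost in 7 of 13 alternatives, among them leaving out any family but the third.

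fdps, which makes farnesyl diphosphate, had 20.7, 27.5 and 34.9 CPM in Hom, 43.7, 59.2 and 73.4 CPM in Het, and 41.9, 50.8 and 60.5 CPM in WT. No Hom library reached the lowest Het or WT library. In log2 terms fdps differed by -0.88 ± 0.13 against WT (edgeR adjusted p = 0.00319) and -1.10 ± 0.13 against Het (edgeR adjusted p = 6.49e-04).

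fdft1, squalene synthase, commits farnesyl diphosphate to sterols. It had 5.62, 6.95 and 66.1 CPM in Hom, 4.03, 9.25 and 14 CPM in Het, and 7.39, 9.36 and 13.3 CPM in WT. The 66.1 CPM is the Hom library of family 3, one of the 3 that stand apart, and Hom was below WT in the 5 other families. The log2 fold change against WT was 0.16 ± 0.55 (edgeR adjusted p = 0.908) with all libraries, and -0.50 ± 0.12 (edgeR adjusted p = 0.0197) without those 3.

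Squalene epoxidase, a rate-limiting enzyme of the route in mammals, had the largest log2 fold change of the 30 genes in both comparisons. Its main ID, sqle ENSDARG00000079946, had 1.64, 3.5 and 7.95 CPM in Hom, 5.48, 17.9 and 22.4 CPM in Het, and 7.72, 16.9 and 23.6 CPM in WT. The highest Hom library, that of family 2, was just above the lowest WT library, that of family 4. Within families Hom stood at 10.6% to 52.6% of WT. This was a log2 fold change of -2.21 ± 0.25 against WT, that is 4.61-fold lower (edgeR adjusted p = 4.98e-04), and -2.15 ± 0.25 against Het (edgeR adjusted p = 6.49e-04). The second ID, sqle ENSDARG00000063319, stayed under 1 CPM in every library and was not called, with medians of 0.576 CPM in Hom, 0.546 CPM in Het and 0.396 CPM in WT. The log2 ratio of their levels within a library, one of the paralog ratios examined after their values had been seen, was lower in Hom by a mean of -2.27 against WT (SD 1.05) and -2.06 against Het (SD 0.94), in 6 of 6 families each. Each level had 0.5 CPM added and the second ID stayed under 1 CPM, so this ratio and its test mostly restate the lower level of the main ID. A two-sided exact sign-flip permutation test over families gave p = 0.03125 for each comparison, the smallest that 6 families allow. Adjusted over the 8 ratio tests run, of which 2 are not reported here and are ranked last, this exact permutation p is 0.0625. The same tests of the ratio of ldlrb to ldlra gave exact permutation p = 0.8125 against WT and 1.0 against Het. That ratio depends on the Hom library of family 3, at 333 CPM in ldlrb. Its mean difference was 0.55 against WT (SD 2.35) and 0.57 against Het (SD 2.97). Without the 3 libraries that stand apart it was -0.36 (lower in 4 of 5 families) and -0.61 (lower in 4 of 4).

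lss, which folds the squalene epoxide into lanosterol, had 2.91, 3.36 and 6.91 CPM in Hom, 7.17, 13.7 and 15.8 CPM in Het, and 7.33, 11.5 and 17.4 CPM in WT. The ranges did not overlap, and the highest Hom value was again that of family 2. Its log2 fold change was -1.57 ± 0.18 against WT (edgeR adjusted p = 5.71e-04) and -1.72 ± 0.18 against Het (edgeR adjusted p = 4.55e-04).

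From lanosterol to cholesterol 4 of 9 enzymes were lower against WT (step median -1.05) and 6 of 9 against Het (step median -1.14). cyp51a1, the lanosterol demethylase, had 17, 21.2 and 38.2 CPM in Hom, 47.4, 70.7 and 88.1 CPM in Het, and 44.7, 70.7 and 84.7 CPM in WT. Every Hom library was below every library of the other genotypes, at 22.9% to 56.9% of the WT library of its family. cyp51a1 changed by -1.53 ± 0.17 against WT on the log2 scale (edgeR adjusted p = 4.90e-04) and -1.52 ± 0.17 against Het (edgeR adjusted p = 5.97e-04).

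The sterol reductases tm7sf2 and lbr, which act on the product of cyp51a1, are given next. tm7sf2 had 13.8, 15.7 and 20.7 CPM in Hom, 23.4, 24.4 and 28.7 CPM in Het, and 19.4, 20.9 and 31.6 CPM in WT. The Hom range lay below the Het range and overlapped the WT range. tm7sf2 passed against Het (log2 fold change -0.60 ± 0.14, edgeR adjusted p = 0.0487) and not against WT (-0.46 ± 0.14, edgeR adjusted p = 0.143). lbr, which also anchors chromatin at the nuclear lamina, had medians of 31.9 CPM in Hom, 29.1 CPM in Het and 26.9 CPM in WT and was not called in either comparison.

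The methyl groups of lanosterol are then removed by msmo1, nsdhl and hsd17b7 in turn. msmo1, the methylsterol oxidase, had 7.26, 16.8 and 22 CPM in Hom, 32.3, 61.9 and 73.3 CPM in Het, and 30.3, 51.3 and 77.1 CPM in WT. Its ranges did not overlap, and the lowest Hom value, that of family 3, was 11.8% of the WT library of its family. The log2 fold change was -1.66 ± 0.28 against WT (edgeR adjusted p = 0.00738) and -1.86 ± 0.28 against Het (edgeR adjusted p = 0.00441).

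nsdhl, the dehydrogenase, was expressed at a low level, with 1.12, 1.89 and 2.86 CPM in Hom, 2.85, 5.09 and 6.22 CPM in Het, and 2.41, 4.58 and 8.66 CPM in WT. Its Hom range touched the others at one end, yet Hom was lower in 6 of 6 families against both. For nsdhl the log2 fold change was -1.32 ± 0.23 against WT (edgeR adjusted p = 0.0113) and -1.39 ± 0.23 against Het (edgeR adjusted p = 0.00894).

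hsd17b7, the ketosteroid reductase of the same sequence, had 6.71, 13.1 and 20.2 CPM in Hom, 22.4, 28.3 and 31.7 CPM in Het, and 18.3, 25.3 and 43.1 CPM in WT. The Hom range was wholly below the Het range and overlapped the WT range at one end. It passed against neither, with a log2 fold change of -1.14 ± 0.29 against WT (edgeR adjusted p = 0.0688) and -1.14 ± 0.28 against Het (edgeR adjusted p = 0.06).

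ebp, the sterol isomerase, had 5.78, 6.38 and 8.27 CPM in Hom, 7.10, 12 and 24.4 CPM in Het, and 7.49, 11 and 20.6 CPM in WT. Hom libraries were tightly grouped and the other genotypes were not, and Hom was lower in 6 of 6 families against both. The call was made against Het (log2 fold change -0.92 ± 0.20, edgeR adjusted p = 0.0385) and not against WT (-0.77 ± 0.20, edgeR adjusted p = 0.0815).

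sc5d, the sterol desaturase, had 4.65, 5.43 and 7.87 CPM in Hom, 10.9, 14.9 and 22 CPM in Het, and 8.71, 12.2 and 15 CPM in WT. All Hom libraries were below all others. Its log2 fold change was -1.05 ± 0.15 against WT (edgeR adjusted p = 0.00319) and -1.39 ± 0.16 against Het (edgeR adjusted p = 4.95e-04).

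dhcr7, which acts last or next to last, had the smallest fold change among the steps after msmo1. It had 17, 19.0 and 22 CPM in Hom, 20.2, 23.3 and 30.4 CPM in Het, and 20.2, 25.2 and 27.8 CPM in WT. Hom was lower in 6 of 6 families against both, without passing the test (log2 fold change -0.37 ± 0.12 against WT, edgeR adjusted p = 0.173).

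**Figure D2:**
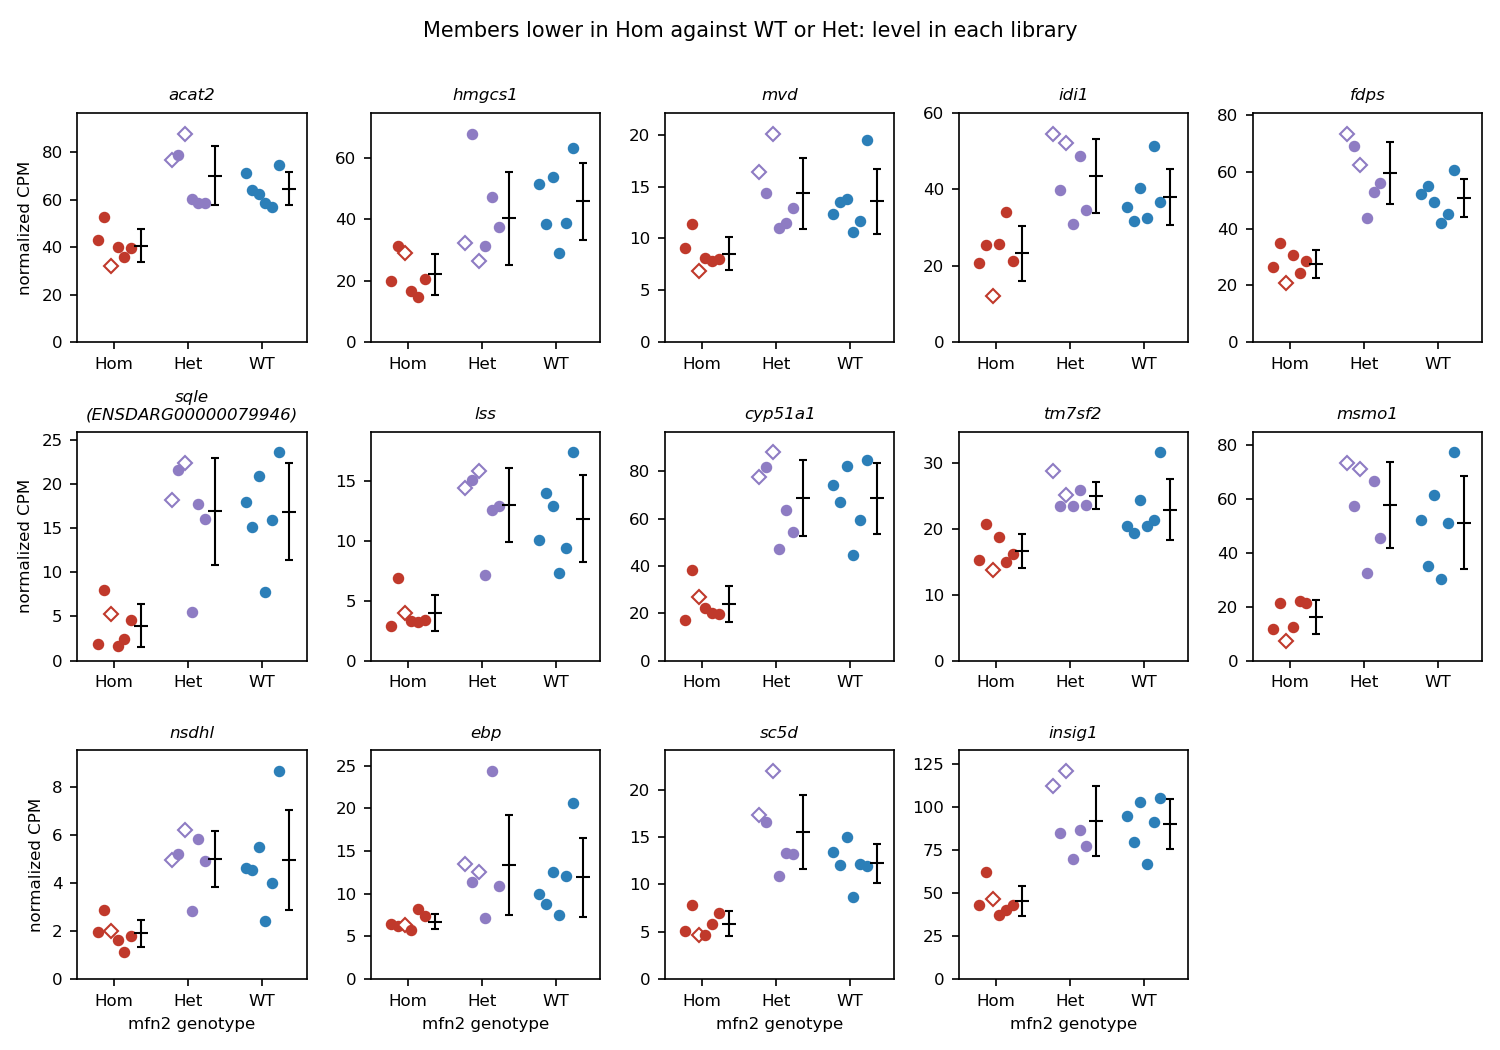
Normalized CPM of the 14 genes lower in Hom against WT or Het, 1 point per library, with the mean and SD (bars) beside each group of 6; open diamonds are the 3 libraries that stand apart. For acat2, fdps, lss, cyp51a1, msmo1, sc5d and insig1 every Hom point lies below every Het and WT point.

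The size of the difference varied among families. The 20 enzymes of Hom stood at a median of 41.6% of the WT library of the family in family 3 and 48.6% in family 6. In families 1, 5 and 4 the medians were 62.5%, 64.8% and 74.5%. Family 2, whose WT label mfn2 goes against, had the highest median, 80.7% of the library labelled WT, and 65.7% of the library labelled Het. Over the 5 other families Hom against Het gave medians of 34% to 65.7%. Het against WT gave medians from 75.9% in family 6 to 125% in family 1. Set against the median WT level of each enzyme, the 6 Hom libraries had medians of 42.3% to 74.3%, the 6 Het libraries 87.6% to 125%, and the 6 WT libraries 80.5% to 129%. The 3 libraries that stand apart set some of these ends: 42.3% in Hom of family 3, and 122% and 125% in Het of families 1 and 3. Without them the lowest Hom median was 58.0% and the highest Het median 114%. They also enter the 41.6% and 34% of family 3 and the 125% of family 1 above. These summaries describe the libraries and were not tested.

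**Figure D3:**
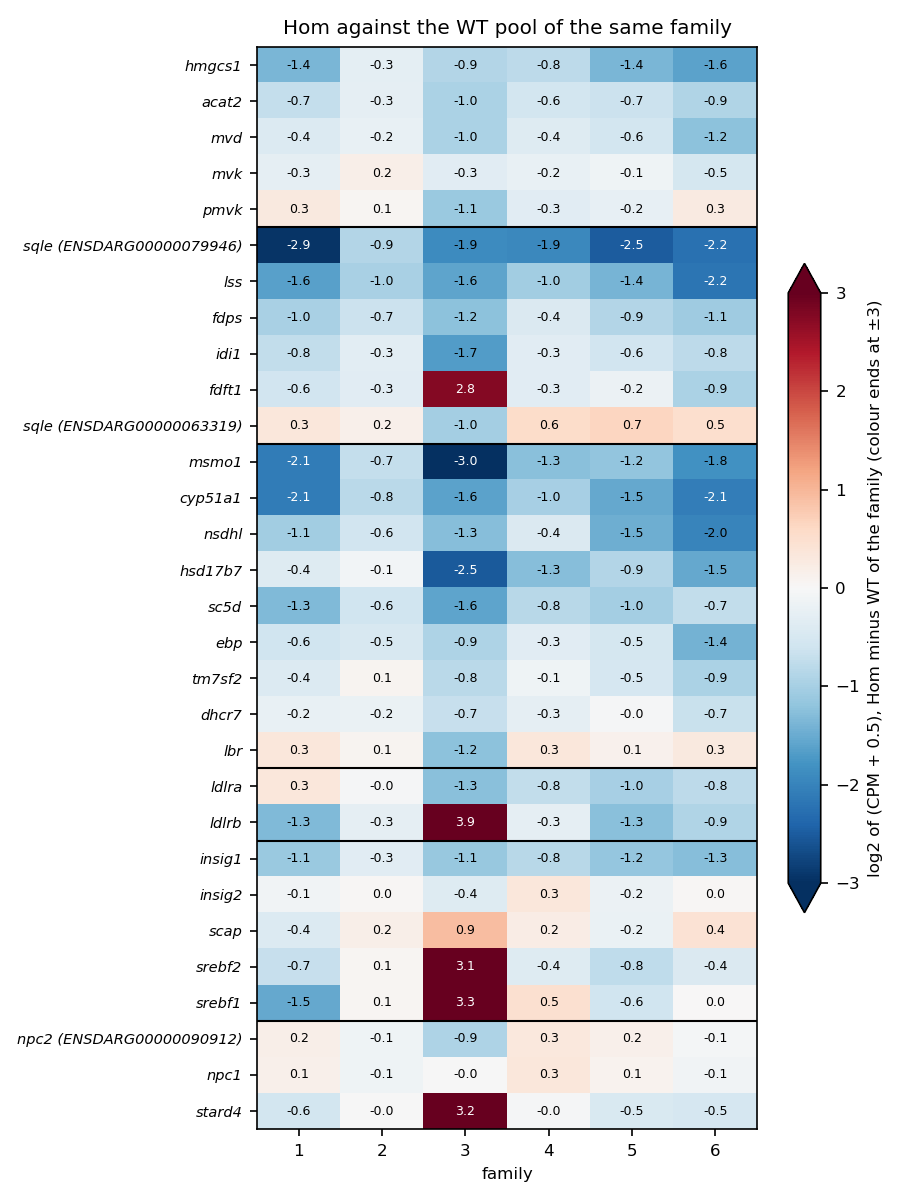
Difference in log2 of CPM plus 0.5 between the Hom and the WT library of each family (columns) for the 30 tested genes (rows, grouped by step, colour ending at 3 in either direction). Blue rows such as lss, cyp51a1 and fdps are lower in Hom in all 6 columns, family 2 is the palest column, and family 3 holds the red cells of fdft1, ldlrb, srebf1, srebf2 and stard4.

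The LDL receptor genes, which bring in cholesterol carried by lipoproteins, were not called in either comparison. ldlra was expressed at a low level, with 0.646, 1.19 and 1.67 CPM in Hom, 0.875, 1.47 and 2.54 CPM in Het, and 0.989, 2.21 and 2.58 CPM in WT. Its log2 fold change against WT was -0.71 ± 0.33 (edgeR adjusted p = 0.356). ldlrb had 7.04, 10.3 and 333 CPM in Hom, 8.72, 17.6 and 20.1 CPM in Het, and 13.1, 18.7 and 22.3 CPM in WT. The 333 CPM is the Hom library of family 3, and Hom was below WT in the 5 other families. The log2 fold change against WT was 0.02 ± 0.77 (edgeR adjusted p = 0.992) with all libraries. Without the 3 libraries that stand apart it was -0.82 ± 0.16 (edgeR adjusted p = 0.00838). The symbol mylip, that of the ubiquitin ligase that sends the LDL receptor to degradation, belongs to a pair of IDs, and the annotation does not say whether either is mylipa, so they are not counted among the 31. ENSDARG00000008859 had medians of 120 CPM in Hom, 107 CPM in Het and 91.7 CPM in WT and was not called (edgeR adjusted p = 0.385 against WT). Without the 3 libraries it was higher in Hom by 0.40 (log2, edgeR adjusted p = 0.013).

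Among the 5 sterol-sensing genes, insig1 was lower in Hom. insig1, itself a target of SREBP in mammals, had 37.2, 43.3 and 62.4 CPM in Hom, 69.7, 85.8 and 121 CPM in Het, and 66.7, 92.9 and 105 CPM in WT. No Hom library reached the range of the others, and within families Hom was at 41.1% to 78.4% of WT. The log2 fold change was -0.98 ± 0.13 against WT (edgeR adjusted p = 0.00203) and -1.0 ± 0.13 against Het (edgeR adjusted p = 0.00216). Its relative insig2, which holds SCAP in the same way, had medians of 4.46 CPM in Hom, 4.38 CPM in Het and 4.52 CPM in WT and was not called. The log2 ratio of insig1 to insig2 was lower in Hom in 6 of 6 families, by -0.94 against WT (SD 0.33) and -1.06 against Het (SD 0.42), each with an exact sign-flip permutation p = 0.03125 (adjusted 0.0625).

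The SREBP genes and scap were not called in either comparison. srebf2, whose product is the main regulator of cholesterol synthesis, had 50.1, 65.8 and 838 CPM in Hom, 12.5, 80.2 and 95.9 CPM in Het, and 79.0, 85.9 and 100 CPM in WT. Its highest value is the Hom library of family 3 and its lowest values are the Het libraries of families 1 and 3. These are the same 3 that stand apart. The log2 fold change against WT was 0.24 ± 0.67 (edgeR adjusted p = 0.886) with them and -0.43 ± 0.10 (edgeR adjusted p = 0.0222) without them. srebf1, whose product acts mainly on fatty acid synthesis, had 6.11, 15.4 and 220 CPM in Hom, 1.37, 14.6 and 19.3 CPM in Het, and 12.4, 19.0 and 21.8 CPM in WT. It was not called with those libraries or without them (log2 fold change -0.30 ± 0.23 against WT without them, edgeR adjusted p = 0.476). scap, the sterol-sensing escort, had medians of 11.1 CPM in Hom, 9.75 CPM in Het and 10.7 CPM in WT.

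**Figure D4:**
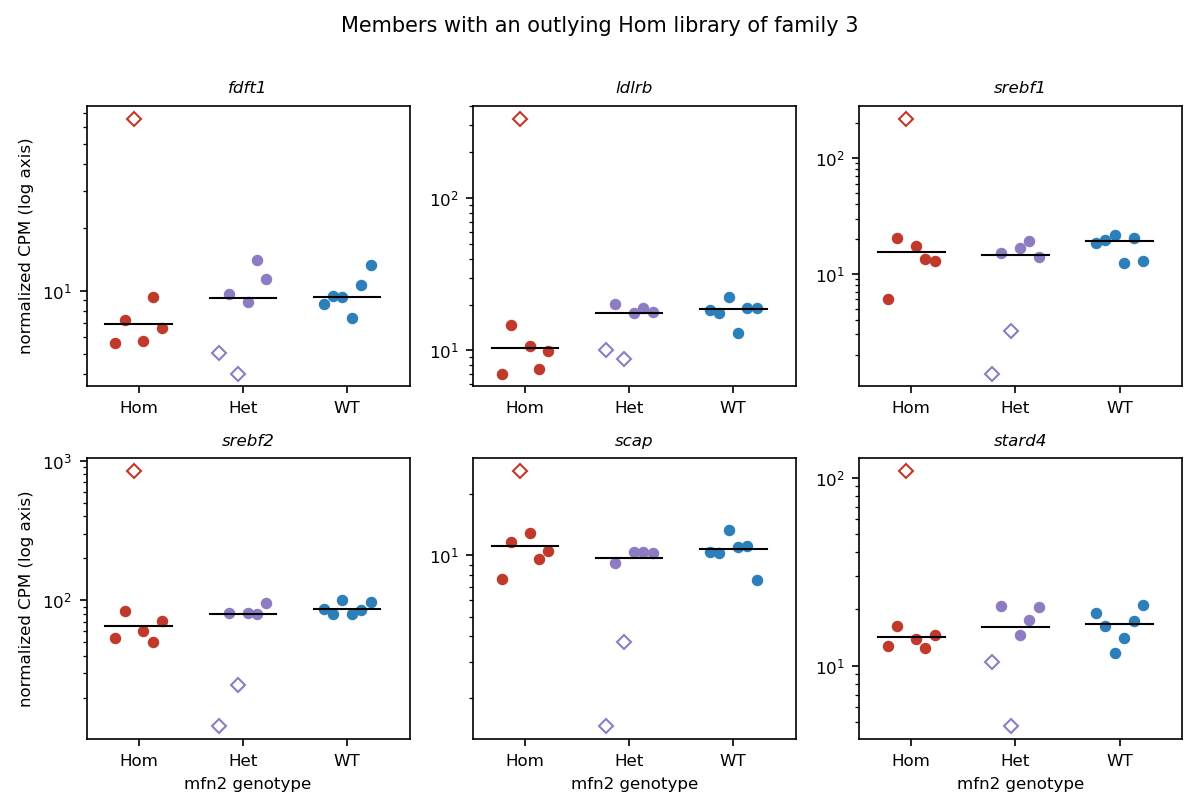
Normalized CPM (log axis) of 6 genes in which the Hom library of family 3 lies far above the other Hom libraries, 1 point per library, with the group median as a line; open diamonds are the 3 libraries that stand apart. The diamonds carry the highest Hom value and the lowest Het values of each gene, 838 CPM and 12.5 CPM for srebf2.

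None of the 3 transport genes tested was called. stard4, a carrier of cholesterol between membranes, had 12.4, 14.2 and 108 CPM in Hom, 4.76, 16 and 20.7 CPM in Het, and 11.7, 16.7 and 20.9 CPM in WT. The 108 CPM is again the Hom library of family 3, and the log2 fold change against WT was 0.37 ± 0.57 with all libraries and -0.31 ± 0.10 without the 3 (edgeR adjusted p = 0.789 and 0.0755). npc1, which moves cholesterol out of the lysosome, had medians of 59.4 CPM in Hom, 53.8 CPM in Het and 56.7 CPM in WT. Its partner npc2 (ENSDARG00000090912) had medians of 59.9 CPM in Hom, 60.4 CPM in Het and 55.3 CPM in WT.

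Leaving out the 3 libraries that stand apart raised the count of genes lower in Hom against WT to 16 of 30, against 3.29% of all genes tested without them. All 10 earlier calls were among the 16, with mvd, idi1, fdft1, hsd17b7, ldlrb and srebf2 added. Against Het the count stayed at 13, where 1.83% of all genes were lower, with 10 genes shared, hmgcs1, fdft1 and ldlrb added, and mvd, tm7sf2 and ebp lost. Leaving out family 2, whose WT and Het labels may be exchanged, gave 10 against WT and 9 against Het. Over all 20456 genes tested without that family, 47 and 56 were lower. Leaving out family 5 brought the count against Het to 8. The calls against WT of acat2 and hmgcs1 each ended when family 1, 4, 5 or 6 was left out, and that of nsdhl without family 1 or with only the genotypes compared. Against Het, mvd and tm7sf2 lost their calls when any single family was left out, and ebp when any but the sixth was. DESeq2 on all libraries called 14 of its 31 lower against WT, beside 1.47% of all genes it tested, and 15 against Het, beside 3.63%. An edgeR fit of the Hom and Het libraries alone called 3 of the 30 lower, beside 0.0653% of all genes.

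Related gene lists were read in the same fit, and differences between lists were not tested. In the list of isoprenoid and ketone body branches, 0 of 11 tested genes were called in Hom against WT by edgeR or against Het, 1 of the 11 had an unadjusted p under 0.05 in each comparison (2919 of all 20353 genes against WT and 4428 against Het), and the median log2 fold change against WT was -0.04. The gene of smallest p against WT was acat1, a mitochondrial acetyl-CoA acetyltransferase, with a log2 fold change of -0.30 ± 0.13 (edgeR adjusted p = 0.301).

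In the list of SREBP processing and LDL receptor handling, the median against WT was 0.10. Of its 11 tested genes 1 was lower against WT, beside 0.423% of all tested genes. This was tmem97, a sterol-regulated membrane protein known in human cells to bind NPC1, with 4.03, 7.83 and 11.2 CPM in Hom, 12.1, 15.2 and 17.2 CPM in Het, and 12.3, 14.3 and 17.8 CPM in WT. The Hom range was below both others. Over all tested genes, 1.42% had Hom wholly below WT and 1.96% had Hom wholly below Het. The log2 fold change of tmem97 was -0.91 ± 0.20 against WT (edgeR adjusted p = 0.0374). The call ended when family 1, 4, 5 or 6 was left out (edgeR adjusted p up to 0.181).

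Of the genes of cholesterol storage, efflux and oxidation, 2 of 28 tested were higher in Hom against WT and 0 were lower. Over all tested genes 1.49% were higher and 0.423% lower. The median of the list was 0.17. ch25h, whose product oxidizes cholesterol to an oxysterol, had 6.94, 8.40 and 10.7 CPM in Hom, 0.937, 2.00 and 3.51 CPM in Het, and 1.25, 1.81 and 2.53 CPM in WT. All Hom libraries were above all others, a pattern that was not counted over all genes. The log2 fold change of ch25h was 2.3 ± 0.25 against WT (edgeR adjusted p = 3.07e-04) and 2.12 ± 0.25 against Het (edgeR adjusted p = 6.49e-04). apoeb, an apolipoprotein E gene that is also a microglia marker in zebrafish, had 210, 671 and 785 CPM in Hom, 209, 235 and 413 CPM in Het, and 170, 226 and 311 CPM in WT. The Hom library of family 3 was the low one, Hom was above WT in the 5 other families, and the log2 fold change against WT was 1.41 ± 0.30 (edgeR adjusted p = 0.0318). Leaving out any family but the third ended this call (edgeR adjusted p up to 0.174). Without the 3 libraries that stand apart the log2 fold change against WT was 1.63 ± 0.15 (edgeR adjusted p = 7.08e-05). Against Het apoeb was not called with all libraries. Without those 3 it was higher than in Het by 1.62 ± 0.17 (log2, edgeR adjusted p = 2.57e-04). abca1, which exports cholesterol to apolipoproteins, had 86.5, 128 and 178 CPM in Hom, 28.8, 73.2 and 81.5 CPM in Het, and 64.7, 79.4 and 91.2 CPM in WT. It was higher against Het (log2 fold change 1.1 ± 0.23, edgeR adjusted p = 0.0333) and not called against WT (0.74 ± 0.23, edgeR adjusted p = 0.146). Without the 3 libraries it was called higher against WT too (0.64 ± 0.12, edgeR adjusted p = 0.006). The annotation names this ID abca1, without a paralog letter. The related gene abca1b was not called against WT or Het with all libraries.

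Of 13 fatty acid synthesis genes, which SREBP also regulates in mammals, 1 was higher and 0 were lower against WT. Over all tested genes 1.49% were higher and 0.423% lower against WT. Against Het 0 of the 13 were called. The list medians were -0.09 against WT and 0.04 against Het. The gene called was me1, the malic enzyme that supplies NADPH, with 1.00, 1.99 and 2.7 CPM in Hom, 0.60, 1.34 and 2.84 CPM in Het, and 0.539, 0.788 and 1.58 CPM in WT. Its ranges overlapped, and its log2 fold change against WT was 1.11 ± 0.26 (edgeR adjusted p = 0.0458). That call was lost without the family block (edgeR adjusted p = 0.201).

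**Figure D5:**
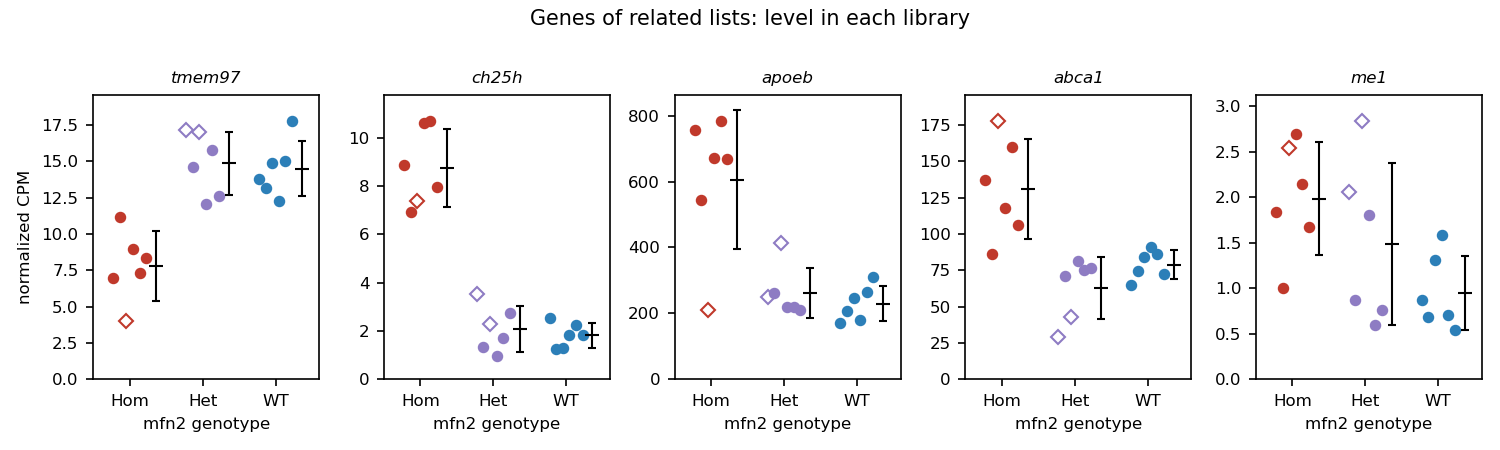
Normalized CPM of 5 genes of related lists, 1 point per library, with the mean and SD (bars) beside each group of 6; open diamonds are the 3 libraries that stand apart. The Hom points of tmem97 lie below all Het and WT points, and those of ch25h lie above them.

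Markers of brain cell types were read beside these results. Of 13 oligodendrocyte and myelin markers, whose cells are heavy users of cholesterol, 0 were called in Hom against WT and their median log2 fold change was -0.12. Against Het 0 of the 13 were called and the median was -0.21. The log2 fold change was negative for 9 of the 13 against WT and 11 against Het. Their summed level was 7575 to 19732 CPM in Hom (median 15145), 15942 to 29845 CPM in Het (median 22964) and 14349 to 22084 CPM in WT (median 19417). The lowest Hom sum is the library of family 3, and the Hom sums began at 9154 CPM without it. Radial glia and astroglia markers had 0 of 15 tested called (median -0.26), with sums of 4747 to 6981 CPM in Hom, 5814 to 7801 CPM in Het and 5915 to 7895 CPM in WT. Neuronal markers had 0 of 15 called (median -0.21), and their sums in Hom, 9846 to 10975 CPM, were below all those in Het, 12213 to 13299 CPM, and in WT, 11590 to 13022 CPM. Such a sum can be carried by a few abundant genes. Gene by gene, log2 fold changes against WT ran from -0.47 to 0.45, with 10 of the 15 negative. Hom lay wholly below WT in 2 of the 15 and wholly below Het in 3, patterns of 1.42% and 1.96% of all tested genes.

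Microglia and macrophage markers went the other way, with 6 of 18 tested higher in Hom against WT (median 0.73), apoeb among them. Against Het, 2 of the 18 were higher (median 0.43). Over all tested genes 1.49% were called higher against WT and 1.19% against Het. Sums of these markers were 741 to 2651 CPM in Hom, 1070 to 1712 CPM in Het and 1004 to 1447 CPM in WT. The Hom sums began at 1829 CPM without the library of family 3, and the Het sums ended at 1230 CPM without those of families 1 and 3. Of the marker lists outside neurons and glia, none had a gene called against WT: 0 of 4 tested for oocytes, 0 of 13 for photoreceptors and pineal and 0 of 5 for blood. Blood sums were 381 to 3504 CPM in Hom, 1104 to 4401 CPM in Het and 1062 to 3013 CPM in WT, and photoreceptor and pineal sums were 9.28 to 86.6 CPM in Hom, 9.66 to 25.5 CPM in Het and 10.1 to 154 CPM in WT. Oocyte sums were 30.1 to 41.6 CPM in 5 Hom libraries and 215 CPM in that of family 3, with 30.4 to 35.8 CPM in Het and 29.4 to 35.6 CPM in WT. The oocyte markers zp2.1, zp2.5 and zp3.2 were at 0 in every Het library, and zp2.1 and ca15b in every WT library. The part of these cell type differences in the levels of the cholesterol genes was not tested.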

How the data were processed

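The deposited file holds raw counts per gene for 18 libraries. Reads were processed with STAR 2.7.0a and featureCounts of Subread 1.5.2 on GRCz11, per the submitters' processing notes. Which annotation was used, whether strand was counted and how multi-mapping reads were handled is not stated here, so counts of overlapping genes and of near-identical copies (the sqle and mylip pairs) may be shared.

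Symbols were paired with gene IDs through gene name tables, which named 28988 of the 32057 IDs. Of 34 symbols, 29 matched as written, 4 only without their paralog letter and 1 (cyp51) not at all. The members, the related and marker lists and the tests were chosen with earlier results of these data known.

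Genes were filtered with filterByExpr (minimum count 10, minimum total 15), leaving 20353, and scaled by TMM. edgeR 4.0.16 (R 4.3.3, limma 3.58.1) fitted family and genotype over all 18 libraries (prior count 0.125), with Benjamini-Hochberg adjustment over all tested genes at 0.05. Each SE was obtained from the F statistic, as the size of the log2 fold change over the root of F. The fit was also run on simulated counts. These held no family effect and no library that stands apart, so they do not show how the fit behaves with either. Levels are TMM-normalized CPM, not per length, so levels of different genes are not compared. Differences within a family were read with 0.5 CPM added. A family is a single mating, per the labels, so its libraries are paired: deviations correlated with a median r of 0.19 over 18 same-family pairs and -0.059 over 90 other pairs.

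Genes given in full are those called in any comparison, plus, in steps with none, the gene of smallest p in Hom against WT. fdft1, hsd17b7, dhcr7, srebf1, srebf2 and ldlrb, the paralog ratios and mylip were added after their values were seen. Of the related lists, genes called in any comparison are named. Alternatives were no family block, relative log expression (RLE) factors of edgeR or library size alone in place of TMM, and no filter. Others were the test of DESeq2 1.42.0, leaving out each family or the 3 libraries that stand apart, and fitting only the genotypes compared. DESeq2 tested 31 of the genes, since filterByExpr was not applied to it. Its own default filter by mean count left 23376 genes in Hom against WT and 21803 in Hom against Het. Sequences were not analysed here, and some genes of these pathways are not reported here.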

Additional observations from a re-analysis of the deposited data

Results flagged for a closer look

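A library far from the other 5 of its genotype was found in 14 of 105 groups of 6 examined (Dixon's test at the 95% level, which chance alone passes in about 1 group in 20), and 8 of the 14 are the Hom library of family 3. In that library fdft1 had 66.1 CPM, ldlrb 333 CPM, srebf1 220 CPM, srebf2 838 CPM, scap 25.8 CPM and stard4 108 CPM, each far above the next Hom library (9.39, 14.7, 20.2, 83.6, 12.9 and 16.2 CPM in the same order). It was low in lbr, at 11.1 CPM against 27 CPM in the next Hom library, and in npc2 (ENSDARG00000090912), at 27.5 CPM against 56.8 CPM.

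The Hom library of family 2 was high in lss (6.91 CPM, next 3.98 CPM) and insig1 (62.4 CPM, next 46.4 CPM). The Het library of family 4 was low in sqle ENSDARG00000079946 (5.48 CPM, next 16.1 CPM), that of family 5 was high in ebp (24.4 CPM, next 13.5 CPM) and that of family 3 was high in apoeb (413 CPM, next 263 CPM). The WT library of family 6 was high in mvd (19.5 CPM, next 13.8 CPM).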

How the results depend on the processing

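The count of genes lower in Hom was 10 against WT and 13 against Het. It ran from 7 to 13 and from 8 to 12 when each family was left out in turn. Leaving out family 1 gave 7 against WT, and leaving out family 5 gave 8 against Het. The number lower over all tested genes moved as well. With all libraries it was 86 of 20353 against WT and 163 against Het. Against WT it was 33 without family 1 and 202 without family 3, and against Het 47 without family 5. Without the 3 libraries that stand apart the count against WT was 16 (677 over all genes). With only the genotypes compared in the fit the count was 9 against WT (43 over all genes) and 3 against Het (13 over all genes). Without the family block (the pairing) it was 11 and 13 (80 and 184 over all genes). DESeq2 gave 14 and 15 (344 and 791 over all genes). Library size alone gave 10 and 9 (43 and 59 over all genes), with the median of all genes moved to 0.121 and 0.147. Het against WT stayed at 0 under every alternative. The calls of fdps, sqle ENSDARG00000079946, lss, cyp51a1, msmo1, sc5d and insig1 against WT were kept in all 13 alternatives. acat2 and hmgcs1 lost theirs without family 1, 4, 5 or 6 (adjusted p up to 0.128), and nsdhl without family 1 or with only the genotypes compared. Against Het, mvd and tm7sf2 lost theirs in 10 of the 13, ebp in 9 (also without the family block), idi1 in 7 and nsdhl in 2, and acat2, fdps, msmo1, sc5d and insig1 in 1. The direction against WT reversed for 5 of the genes given in full. Without family 3, fdft1 was -0.51, ldlrb -0.84, srebf1 -0.41, srebf2 -0.45 and stard4 -0.32, where the highest values with another family left out were 0.41, 0.39, 0.87, 0.50 and 0.61. Without the 3 libraries they were -0.50, -0.82, -0.30, -0.43 and -0.31, the uncalled pmvk, insig2 and npc2 (ENSDARG00000090912) changed sign to 0.02, 0.04 and 0.10, and the ratio of ldlrb to ldlra turned to -0.36 against WT and -0.61 against Het. With only the genotypes compared fdft1 was -0.03 and ldlrb -0.27, and DESeq2 put ldlrb at -0.0. The cause was not tested. Of the related genes, tmem97, apoeb, abca1 and me1 lost their calls under several alternatives.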
